A study of Mus musculus with 42 samples.

Results

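The regions described here are the β-catenin binding sites that were called in all 3 wild-type (WT) libraries and in none of the 3 libraries of cells lacking Cdx1, Cdx2 and Cdx4 (CdxKO). They were chosen by the β-catenin peak calls alone. The 20000 strongest peaks of each of the 9 deposited β-catenin lists, ordered by the −log10 q-value of the peak caller and limited to chromosomes 1 to 19, X and Y, were pooled, and peaks sharing 1 bp or more formed one region. This gave 96109 merged regions, of which 5207 held a peak of all 3 WT lists. Of those, 3626 also held a peak of all 3 CdxKO lists and are called kept regions below, 1204 held a peak of 1 or 2 CdxKO lists, and 377 held none and are the members. The members were thus 0.392% of all merged regions and 7.24% of the regions found in all 3 WT lists, and since these calls chose them, the WT and CdxKO β-catenin values below are a description with no test.

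The data are peak lists from ChIP-seq of mouse embryonic stem cells differentiated to epiblast-like cells and collected at 72 h, with 3 biological replicates per antibody and genotype, 42 samples in all, of which 12 are inputs with no list used here. All lines were derivatives of one 129-strain HM1 TetON stem cell line, and all cells received bFGF and LGK974, an inhibitor that blocks the secretion of the cells' own WNT ligands. WT, CdxKO (Cdx1/2/4-/-) and T/BraKO (lacking Brachyury, T) cells had in addition been given CHIR99021 (CHIR), a GSK3 inhibitor that activates WNT signalling, for the last day, and a further WT group had not (no CHIR). Antibodies to β-catenin and LEF1 were used in the 3 CHIR groups and an antibody to SOX2 in all 4 groups. Each mutant genotype was a separate line, so genotype and cell line cannot be told apart, and in bulk chromatin a site bound in fewer cells cannot be told apart from a site bound less strongly in each cell. The lists hold no measure of gene expression, so the loss of the Cdx genes and of T was not checked here.

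β-catenin carries the WNT signal into the nucleus, where it does not contact DNA itself and reaches its sites through DNA-binding partners, above all the TCF/LEF factors, of which LEF1 is one. CDX proteins are homeodomain factors of the posterior body axis that bind AT-rich sites and regulate Hox genes, and Brachyury is the T-box factor of the primitive streak. SOX2 is an HMG-box factor of the pluripotent epiblast and the neural lineage. In the caudal epiblast, the tissue these cells model, WNT signalling, CDX factors and Brachyury act together to extend the trunk.

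The sequences at the best-ranked members show a feature in which the members differed from kept regions, short AT-rich words of the kind bound by CDX factors. Each line gives 201 bp of the plus strand of GRCm38 (mm10), 100 bp on each side of the summit of the best-ranked WT β-catenin peak, in lower case, with every CDX word (CCATAAA or CAATAAA or TCATAAA or TAATAAA on either strand) in capitals. The first 6 are the members with the best mean rank over the 3 WT β-catenin lists, in that order, and the last 3 are the best-ranked members in the Hox clusters.
Meis3, chr7:16174134-16174334: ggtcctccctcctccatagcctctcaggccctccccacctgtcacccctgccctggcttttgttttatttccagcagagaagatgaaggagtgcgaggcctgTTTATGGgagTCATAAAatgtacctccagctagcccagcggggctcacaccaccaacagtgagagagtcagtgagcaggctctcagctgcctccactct
Cep112, chr11:108528107-108528307: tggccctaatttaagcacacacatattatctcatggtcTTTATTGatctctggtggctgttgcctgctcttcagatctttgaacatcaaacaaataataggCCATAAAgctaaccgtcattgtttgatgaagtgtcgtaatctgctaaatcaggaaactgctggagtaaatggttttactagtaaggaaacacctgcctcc
Mitf, chr6:97864619-97864819: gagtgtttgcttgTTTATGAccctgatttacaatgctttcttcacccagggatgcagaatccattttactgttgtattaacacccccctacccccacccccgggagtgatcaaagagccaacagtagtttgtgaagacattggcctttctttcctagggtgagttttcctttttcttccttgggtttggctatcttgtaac
Pde11a, chr2:76080686-76080886: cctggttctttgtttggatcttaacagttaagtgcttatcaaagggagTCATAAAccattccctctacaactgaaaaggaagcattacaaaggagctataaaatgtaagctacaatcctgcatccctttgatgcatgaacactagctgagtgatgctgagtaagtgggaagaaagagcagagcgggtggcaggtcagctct
Rbfox3, chr11:118695236-118695436: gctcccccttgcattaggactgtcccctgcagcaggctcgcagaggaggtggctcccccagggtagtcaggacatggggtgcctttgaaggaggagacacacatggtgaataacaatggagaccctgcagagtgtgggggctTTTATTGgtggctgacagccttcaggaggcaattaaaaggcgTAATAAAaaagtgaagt
Sp4, chr12:118564837-118565037: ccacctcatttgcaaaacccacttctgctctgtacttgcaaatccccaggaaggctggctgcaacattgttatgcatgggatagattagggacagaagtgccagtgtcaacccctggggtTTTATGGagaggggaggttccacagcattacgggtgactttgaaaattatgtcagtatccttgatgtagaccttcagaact
Hoxa3, chr6:52176963-52177163: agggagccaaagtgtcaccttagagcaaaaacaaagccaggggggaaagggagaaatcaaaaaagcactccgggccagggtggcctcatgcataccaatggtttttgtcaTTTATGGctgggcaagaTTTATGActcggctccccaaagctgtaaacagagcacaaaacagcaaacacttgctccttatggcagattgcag
Hoxa3, chr6:52199574-52199774: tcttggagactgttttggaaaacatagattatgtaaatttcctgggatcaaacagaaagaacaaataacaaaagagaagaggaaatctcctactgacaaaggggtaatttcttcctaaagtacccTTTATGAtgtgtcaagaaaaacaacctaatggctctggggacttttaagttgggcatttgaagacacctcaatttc
Hoxb8, chr11:96283626-96283826: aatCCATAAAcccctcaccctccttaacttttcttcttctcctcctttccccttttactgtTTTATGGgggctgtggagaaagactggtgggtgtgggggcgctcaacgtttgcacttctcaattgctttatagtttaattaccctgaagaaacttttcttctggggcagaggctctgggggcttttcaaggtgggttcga
All 9 windows held at least 1 CDX word, and 5 of them held 2. In the Meis3 window, upstream of the gene for a homeodomain cofactor of Hox proteins, the words stood 3 bp apart and next to the summit, and in the Hoxa3 intron window at chr6:52176963-52177163 both words lay just to the right of the summit. The Hoxb8 window carried its pair to the left of the summit. TCF/LEF words (CTTTGAA or CTTTGAT) were present in 5 of the 9 windows, at Cep112, Mitf, Pde11a, Rbfox3 and Sp4, and in none of the 3 Hox windows. A word is a match of letters and not a measured contact.

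At 177 of the 377 members, 46.9%, the window of 100 bp on each side held a CDX word (95% Wilson interval, counting error only, 42.0 to 52.0%). The same search found one in 13.3% of all 96109 regions and in 8.66% of the kept regions. Kept regions were bound more strongly in WT cells than the members: their median mean rank was 2501 against 6823. A comparison set was therefore taken from the kept regions with a mean WT rank between the quartiles of the members, 4008 to 9380, a choice made after the data were seen. Of these 975 rank-matched kept regions 8.21% (6.64 to 10.1%) held a CDX word. When the members' windows were moved 1000 bp along the chromosome the share fell to 18.3%, near the 14.3% of the moved rank-matched windows and the 16.5% of all moved windows.

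Each of the 4 CDX words contributed. TCATAAA was present in 17.0% of the members and 2.26% of the rank-matched kept regions, CAATAAA in 15.4% and 3.08%, CCATAAA in 13.3% and 1.74%, and TAATAAA in 11.7% and 1.95%. At least 2 words were found in 47 members (12.5%), against 8 of the 975 rank-matched kept regions (0.821%) and 1.49% of all regions. The words lay close to the summit: the nearest one had a median distance of 32 bp in members that held one, against 57 bp in the rank-matched kept regions and 47 bp in all regions. The plot of word positions shows the members peaking within 50 bp of the summit.

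**Figure D1:**
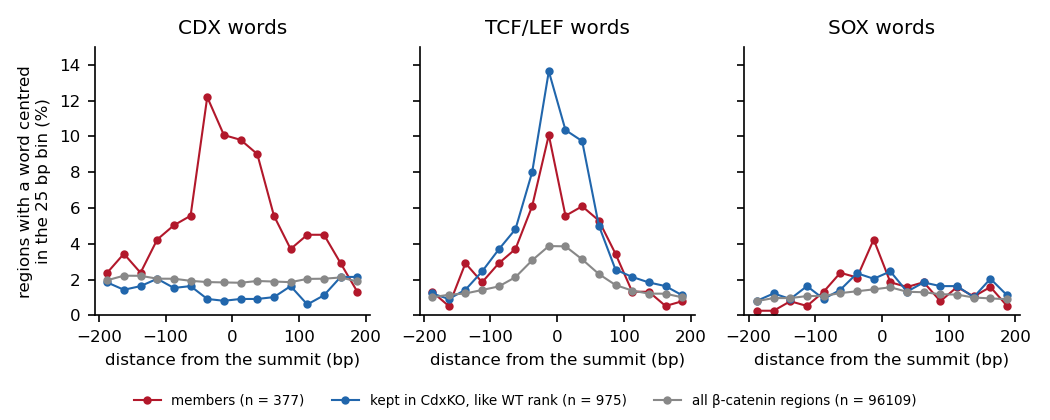
Share of regions (%) with a CDX, TCF/LEF or SOX word centred in each 25 bp bin, against the distance of the bin from the β-catenin summit (bp), for the 377 members, the 975 rank-matched kept regions and all 96109 regions. CDX words reach 12.2% of members in the bin from 50 to 25 bp left of the summit, and 2.39% and 1.33% in the outermost bins.

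The AT content of the members was close to that of all regions. Their 201 bp windows had a median AT content of 53.7%, against 50.2% in the rank-matched kept regions and 52.2% in all regions, and the windows moved by 1000 bp had 55.7%, 55.2% and 55.2%. TCF/LEF words were present at 37.7% of the members (32.9 to 42.7%), fewer than at the rank-matched kept regions (47.9%, 44.8 to 51.0%) and more than in all regions (19.3%). SOX words (CCATTGT or CCTTTGT) were found at 15.4%, 12.6% and 9.78% of the 3 sets, with overlapping intervals for the first pair. MEIS words (TGACAG) were found at 12.7% of the members, 19.3% of the rank-matched kept regions and 14.2% of all regions, OCT words (ATGCAAAT or ATGCTAAT) at 6.10%, 9.64% and 3.83%, and the T-box word AGGTGTGA at 1.59%, 2.46% and 1.37%. Of the members with a CDX word 73 (41.2%) also held a TCF/LEF word and 31 (17.5%) a SOX word. Words of different factors may overlap in sequence, and overlapping matches were counted for both.

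Among the members the CDX share was highest where the WT peak ranked best. Divided by mean WT rank into 4 classes, 68 of the 95 best-ranked members (71.6%) held a CDX word, followed by 44.7%, 43.6% and 27.7% of the next 3 classes of 94. Kept regions within the same 4 rank ranges, 2539, 691, 284 and 112 in number, held one in 8.98%, 8.10%, 8.45% and 5.36%. In each of the 4 rank ranges the share was higher in the members. Regions share sequence families and neighbourhoods and are not replicates, so no test was made of these shares.

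In β-catenin enrichment the members were mid-ranking WT sites that were weak or unlisted in CdxKO. The unit is the fold enrichment of the peak caller, the height of the peak over its local background, taken for the highest peak in the region. The median over members was 7.99, 7.64 and 11.3 in WT libraries 1, 2 and 3, close to the 7.87, 8.69 and 11.3 of the rank-matched kept regions. In the complete CdxKO lists, which hold 40630 to 140907 peaks, 169 members had no peak in any library, 126 had one in 1 library, 67 in 2 and 15 in all 3. Where a CdxKO peak was listed its median fold enrichment was 4.58, 4.28 and 4.56. A member is thus a site outside the best peaks of CdxKO cells, and for 208 of the 377 a weaker peak was still on record. No complete CdxKO list held a peak at 44.8% of the members and at 46.3% of all regions. These shares are not like for like, since members could hold no CdxKO peak among the 20000 best. Of all regions 52810 met that condition, and 44501 of these had no peak in any complete CdxKO list. Members thus kept a weaker CdxKO peak more often than regions under that condition, which were not required to hold WT peaks.

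The border of the rule was narrow for some of these sites. The best-ranked CdxKO peak in a member had rank 20099 (library 3, near Fgf11, fold enrichment 5.38 against 8.07, 6.16 and 12.2 in WT), and the median best rank of the 208 members with any CdxKO peak was 36248. The member with the lowest-ranked WT peak lay near Snap25 at rank 19896 (fold enrichment 5.65 in WT library 2). Just outside, a region near Akap6 was no member because of a single CdxKO peak of rank 19995 (fold enrichment 5.68), and a region near Fer because its peak in WT library 1 had rank 20012 (fold enrichment 4.74).

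Most of the members were bound by β-catenin in T/BraKO cells. A peak among the 20000 best was present at 75.9%, 64.2% and 78.0% of the members in T/BraKO libraries 1, 2 and 3 (mean 72.7% ± 7.43, SD, n = 3), against 82.3% ± 2.50 of the rank-matched kept regions and 20.4% of all regions. At least 2 of the 3 T/BraKO lists held a peak at 287 members (76.1%), where the background over all regions was 13.1%. All 3 lists called 196 members, 2 called 91, 1 called 52 and none called 38. Of the 975 rank-matched kept regions all 3 lists called 696 and none called 89. Of all 96109 regions all 3 called 7142 and none called 57141. The 38 members that no T/BraKO list called were 10.1% of the members, where 7.42% of the kept regions were called by none. They were 9.07% of the 419 regions that were called in 3 of 3 WT lists and 0 of 3 T/BraKO lists. Where a T/BraKO peak was listed, at 91.0%, 79.8% and 86.2% of the members in the 3 complete lists, its median fold enrichment was 11.0, 8.23 and 10.7, and the unlisted members are not in these medians. Both mutant genotypes were read against the same 3 WT libraries, and the members were chosen for a peak in them.

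**Figure D2:**
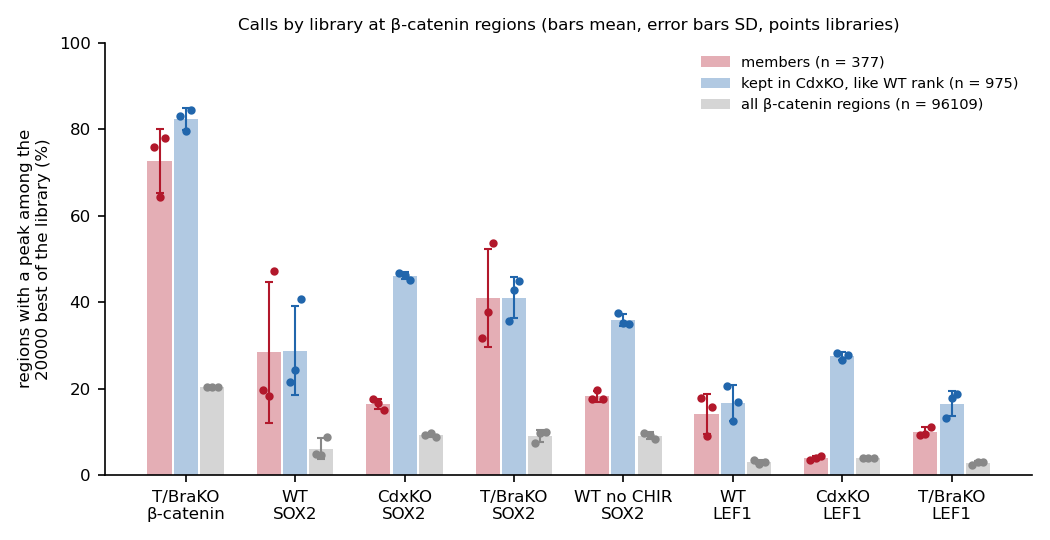
Share of regions (%) with a peak among the 20000 best of each library, by group, for the 377 members, the 975 rank-matched kept regions and all 96109 regions, where bars are means of 3 libraries, error bars SD and points single libraries. Members and rank-matched kept regions have similar SOX2 shares in WT and T/BraKO, and in CdxKO the members stand at 16.4% for SOX2 and 3.98% for LEF1 against 46.1% and 27.5%.

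CDX words, and SOX2 peaks in T/BraKO and in WT with CHIR, were most frequent among the members that all 3 T/BraKO lists called. Among the 196 members called in 3 of 3 T/BraKO lists 58.7% held a CDX word, against 37.4%, 30.8% and 31.6% of those called in 2, 1 and 0 lists. The share of these 4 classes called for SOX2 in T/BraKO cells was 54.8%, 30.4%, 25.0% and 16.7% (means of 3 libraries), while the share called for SOX2 in CdxKO cells was 15.3%, 16.8%, 18.6% and 18.4%. The WT rank moved with these classes, with a median mean rank of 4529, 7900, 9284 and 9959, and its part in the gradient was not tested. Promoter position moved with them as well: 8.67% of the first class lay within 1000 bp of a start site, against 14.3%, 23.1% and 15.8%.

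**Figure D3:**
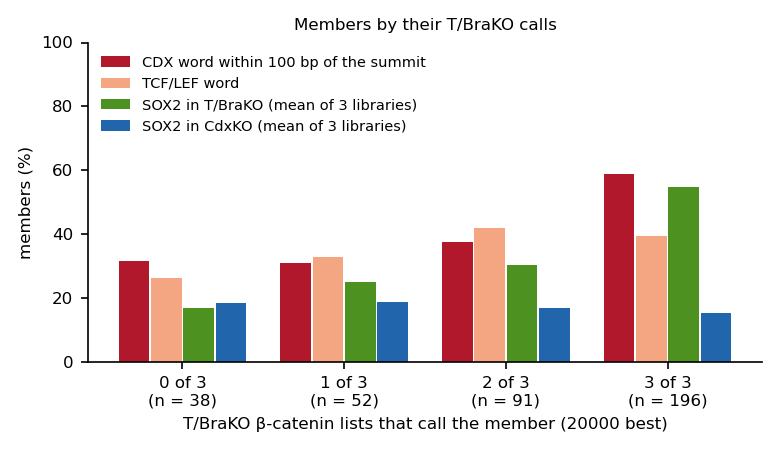
Members (%) with a CDX word or a TCF/LEF word within 100 bp of the summit, and members (%) called for SOX2 in T/BraKO and in CdxKO (means of 3 libraries), by the number of T/BraKO β-catenin lists that called the member (38, 52, 91 and 196 members). The CDX share and the SOX2 share in T/BraKO are highest in the class called by all 3 lists, at 58.7% and 54.8%.

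In WT cells SOX2 was called at the members about as often as at kept regions of like rank, and in CdxKO cells less often than at those. A SOX2 peak among the 20000 best was present at 19.6%, 18.3% and 47.2% of the members in WT libraries 1 to 3, and at 17.5%, 16.7% and 15.1% in CdxKO. WT library 3 stood far above its 2 partners here, so that the WT mean of 28.4% ± 16.3 exceeded the CdxKO mean of 16.4% ± 1.22 by less than the WT SD, although the ranges did not overlap. The rank-matched kept regions were at 21.4%, 24.2% and 40.6% in WT and at 46.8%, 46.3% and 45.1% in CdxKO, opposite in direction to the members, but these regions were required to hold a CdxKO β-catenin peak. Over all regions the means were 6.12% in WT and 9.29% in CdxKO. In T/BraKO cells SOX2 was called at 31.6%, 37.7% and 53.6% of the members, which overlapped the WT range.

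Without CHIR, WT cells had a SOX2 peak at 17.5%, 19.6% and 17.5% of the members, while the rank-matched kept regions were at 37.4%, 35.2% and 34.9%. Counted per site, 93 members (24.7%) had SOX2 in at least 2 of 3 WT CHIR lists (background over all regions 4.50%), 53 (14.1%) in CdxKO (8.12%), 147 (39.0%) in T/BraKO (7.87%) and 65 (17.2%) without CHIR (8.39%). The members with SOX2 in at least 2 WT CHIR lists and in no CdxKO list numbered 44 (11.7%), against a background of 0.403% and 6 of 975 rank-matched kept regions (0.615%). The opposite pattern held at 5 members (1.33%), against 1.99% over all regions and 9.03% of the rank-matched kept regions. SOX2 in at least 2 WT CHIR lists and none of the lists without CHIR was seen at 46 members (12.2%, background 0.709%), against 10 (2.65%, background 2.72%) with the opposite pattern, and the rank-matched kept regions showed these at 2.26% and 4.62%. For T/BraKO these 2 patterns were seen at 2 members (0.531%, background 0.339%) and 24 members (6.37%, background 1.80%), and at 1.33% and 5.95% of the rank-matched kept regions, so the second was near their share. These SOX2 calls were not used to choose the members, but members were chosen for CdxKO β-catenin lists made from the same cell line.

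Where SOX2 peaks were listed in at least 2 of 3 libraries of both groups, their heights could be compared. The log2 fold enrichment was centred on the library's median and tested with limma over all such regions with Benjamini-Hochberg adjustment, a library without a peak being left out of that region's fit. For CdxKO against WT this reached 111 of the 377 members, the other 266 being too seldom listed. The difference was below 0 at 94 of the 111 members (84.7%) and at 61.0% of all 10520 regions tested, with a median of −0.54 in members (quartiles −0.92 and −0.18), −0.14 in all regions and −0.07 in the 583 rank-matched kept regions tested. The members' median thus stood 0.39 below that of all regions, and without centring it did so too (−0.23 against 0.16). Adjusted p-values under 0.05 were reached by 3 members, all lower in CdxKO, where 0.133% of all regions (14) were called lower and 0.00951% (1) higher. An unadjusted p under 0.05 was found at 28 of the 111 members, 27 of them lower, and at 9.11% of all regions tested.

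The 3 members called lower lay in or near Rbfox3, Fank1 and Nt5e. At the Rbfox3 intron, in a gene for a neuronal splicing regulator (chr11:118695052-118695633), the SOX2 fold enrichment was 28.2, 15.6 and 70.4 in WT, unlisted, 4.93 and 5.47 in CdxKO, 51.8, 29.3 and 34.3 in T/BraKO and 6.02, 13.7 and 11.6 without CHIR. All 3 WT and all 3 T/BraKO values lay above every CdxKO value and every value without CHIR. The limma difference between CdxKO and WT was −2.92 ± 0.49 (SE, log2; adjusted p = 0.00242), from 2 CdxKO libraries, and without WT library 3 it was −2.45 with an adjusted p of 0.0697.

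Fank1 and Nt5e are named because the test called them, after their values were seen. In an intron of Fank1 (chr7:133777905-133778684) SOX2 had 18.2, 11.4 and 31.8 in WT, was unlisted in CdxKO library 1 and at 5.82 and 3.78 in libraries 2 and 3, and was unlisted in all 3 libraries without CHIR. The difference was −2.32 ± 0.46 (limma, adjusted p = 0.0179). At the site 7809 bp upstream of Nt5e (chr9:88319220-88319785), the gene of an ecto-5′-nucleotidase, the WT values were 37.6, 6.81 and 46.5 and the CdxKO values 6.97, 3.68 and unlisted. WT library 2 lay below CdxKO library 1 there, so these groups overlapped as listed, and the centred difference was −2.57 ± 0.52 (limma, adjusted p = 0.0179). Leaving out WT library 3 took the limma adjusted p of both above 0.05 (0.140 and 0.144), as did CdxKO library 1 for Fank1 (0.0531) and WT library 1 for Nt5e (0.0697). Without centring the adjusted p of Rbfox3, Fank1 and Nt5e was 0.0696, 0.178 and 0.194.

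Against cells without CHIR the same test reached 114 members. The difference, without CHIR minus with CHIR, had a median of −0.49 in members and −0.20 in all 9948 regions tested. Adjusted p-values under 0.05 were found for 12 members that were lower without CHIR, beside a background of 3.05%, and for 3 that were higher, beside 3.89%. An unadjusted p under 0.05 was found for 23 lower and 5 higher members, and at 21.6% of all regions. The median SE of a member was 0.45. Without centring the split was 3 lower and 5 higher, beside 90 lower and 900 higher of the 9948 regions, so the direction of these counts rests on the scaling. Among the 12 were the Rbfox3 site, the Sp4 site and 3 sites of the Hoxb cluster.

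The Hoxb sites lay close to the start sites of Hoxb8 and Hoxb9, genes for trunk Hox factors. SOX2 at the Hoxb8 intron site (chr11:96283252-96284266) was 14.98, 9.25 and 12.5 in WT with CHIR, and 3.73, 5.11 and unlisted without it. The site at the Hoxb8 start (chr11:96281406-96282362) went from 7.36, 8.95 and 11.5 to unlisted, 4.50 and 3.08. None of the values without CHIR reached the lowest with CHIR at either site. The limma differences were −2.003 ± 0.46 and −1.72 ± 0.45 (limma, adjusted p = 0.00448 and 0.0133), and at Hoxb9, with 11.5, 7.20 and 5.88 against 4.01, 4.88 and 4.61, the difference was −1.27 ± 0.40 (limma, adjusted p = 0.0441). Without centring the limma adjusted p was 0.0374, 0.0608 and 0.225 at the 3 sites, and at Hoxb9 the call was lost without any 1 library other than WT CHIR library 3 (0.0629 to 0.150). Among members near a gene of the pathway lists, the one called higher without CHIR was a site 35258 bp downstream of the start of Sox1, a neural SOX gene: SOX2 was 7.05, 4.94 and 10.0 with CHIR and 29.3, 44.1 and 13.0 without it, a difference of 1.40 ± 0.42 (limma, adjusted p = 0.0308). It was not called without library 1 or 2 of either group (0.0717 to 0.185).

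SOX2 heights in T/BraKO gave no called member. Of the 194 members tested for SOX2 none was called in either direction by limma (16 had an unadjusted p under 0.05, 12 lower and 4 higher, beside 6.59% of all regions), and the median difference was −0.10 in members and −0.10 in all 9648 regions, of which 0.0207% (2) were called lower and none higher. A miss of the threshold does not show that single sites are equal: the median SE at a member was 0.45.

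**Figure D4:**
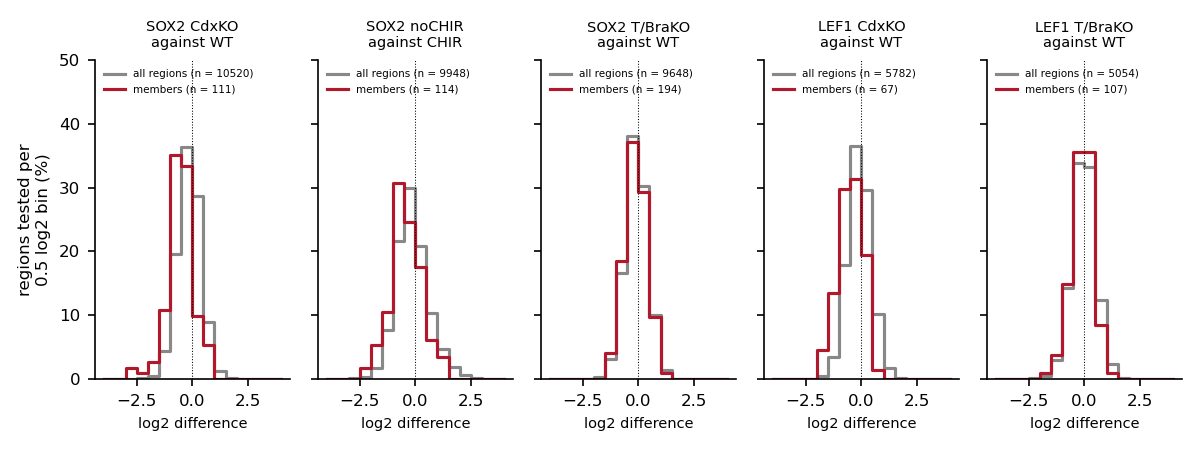
Distribution of limma log2 differences in SOX2 or LEF1 fold enrichment (share of tested regions in % per 0.5 log2 bin), for the members and all regions tested in each of 5 comparisons. The members lie to the left of all regions for CdxKO against WT, with medians of −0.54 against −0.14 for SOX2 and −0.49 against −0.10 for LEF1, and lie close to them for T/BraKO, with −0.10 against −0.10 and −0.06 against −0.03.

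LEF1 was called at fewer members than SOX2, and least often in CdxKO. A LEF1 peak among the 20000 best was present at 17.8%, 9.02% and 15.6% of the members in WT, at 3.45%, 3.98% and 4.51% in CdxKO, and at 9.28%, 9.55% and 11.1% in T/BraKO. The WT and CdxKO ranges were separate, and T/BraKO overlapped WT. The CdxKO mean of 3.98% ± 0.531 was that of an average region (3.91%), while the rank-matched kept regions, which were required to hold a CdxKO β-catenin peak, stood at 27.5% ± 0.884. In WT the members' mean was 14.1% and that of the rank-matched kept regions 16.6%, with overlapping ranges. In T/BraKO the means were 9.99% and 16.5%, and there too every library of the members lay below every library of the rank-matched kept regions (13.1%, 17.7% and 18.7%). In at least 2 of 3 lists LEF1 was called at 29 members (7.69%) in WT, 5 (1.33%) in CdxKO and 21 (5.57%) in T/BraKO, against backgrounds of 1.76%, 2.51% and 1.53%. LEF1 was in at least 2 WT lists and no CdxKO list at 23 members (6.10%, background 0.282%), and the reverse at 2 (0.531%, background 0.671%). The rank-matched kept regions showed these patterns at 2.46% and 9.85%. For T/BraKO the 2 counts were 16 (4.24%, background 0.534%) and 6 (1.59%, background 0.341%), against 3.69% and 3.49% of the rank-matched kept regions, so the first was near their share.

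Heights of LEF1 peaks could be tested at 67 members for CdxKO and at 107 for T/BraKO. For CdxKO the median difference was −0.49 in members and −0.10 in all 5782 regions, and 53 of the 67 (79.1%) were below 0 against 58.4% of all regions. No member passed the adjusted threshold of limma, 12 had an unadjusted p under 0.05, all of them lower in CdxKO, and over all regions 0.0346% (2) were called lower and none higher, with an unadjusted p under 0.05 at 6.11%. For T/BraKO the medians were −0.06 and −0.03, no member was called, 7 had an unadjusted p under 0.05 (5.98% of all regions), and 0.0396% of all regions (2) were called lower. The LEF1 lists held 175430 to 924506 peaks, and the members not in both groups' lists are outside this comparison.

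The 12 members with the best mean WT rank are given site by site, and they are not typical of all 377. All 12 were called in 3 of 3 T/BraKO lists, all 12 held a CDX word, and 4 had no peak in any complete CdxKO list. SOX2 was called in at least 2 lists at 11 of them in WT, at 10 in T/BraKO, at 2 in CdxKO and at 3 without CHIR. LEF1 was called in at least 2 lists at 6 in WT, 4 in T/BraKO and 0 in CdxKO. Over all regions the shares, in the same order, were 4.50%, 7.87%, 8.12% and 8.39% for SOX2 and 1.76%, 1.53% and 2.51% for LEF1. Over all members 196 of 377 were in 3 of 3 T/BraKO lists, 46.9% held a CDX word and 24.7% had SOX2 in at least 2 WT lists. In the best-ranked of the 4 rank classes 86.3% of the members and 83.9% of the kept regions were in 3 of 3 T/BraKO lists. Mean SOX2 shares per library in that class were 45.3% of members and 48.0% of kept regions in WT, and 57.9% and 56.1% in T/BraKO. They were 14.7% and 63.3% in CdxKO, whose β-catenin peaks chose both sets, and 13.7% and 43.4% without CHIR. For LEF1 they were 27.7% and 45.5% in WT, 18.6% and 36.2% in T/BraKO, and 4.91% and 53.5% in CdxKO. The map of fold enrichments shows the CdxKO β-catenin columns mostly empty.

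**Figure D5:**
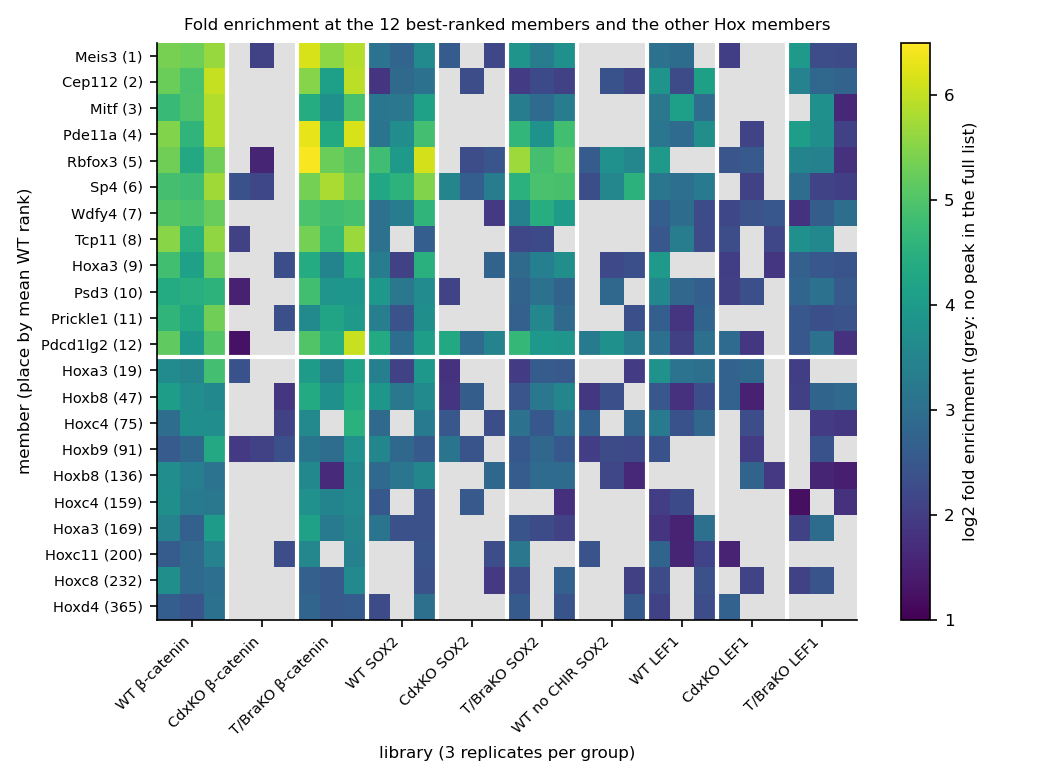
Fold enrichment (log2 colour scale, grey marks no peak in the complete list) at the 12 best-ranked members and the other 10 Hox members, by library, with 3 replicates per group and each member's place by mean WT rank in brackets. WT and T/BraKO β-catenin columns are filled at nearly every site, and CdxKO β-catenin values, where present, are 5.24 or lower.

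The best-ranked member lay 1041 bp upstream of Meis3 (chr7:16173993-16175029). Its β-catenin fold enrichment was 41.6, 39.1 and 50.3 in WT, 71.7, 47.3 and 59.3 in T/BraKO, and 4.27 in CdxKO library 2 with no peak in the others. SOX2 there was 8.54, 6.91 and 12.2 in WT, 14.4, 9.94 and 13.5 in T/BraKO, 6.10, unlisted and 4.49 in CdxKO, and unlisted without CHIR. Each WT value lay above each CdxKO value for both proteins. A second Meis3 member, 2883 bp upstream, had 9.84, 6.77 and 20.2 in WT and no peak in the complete CdxKO lists.

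The next sites were introns of genes with varied functions. Cep112, which encodes a centrosomal protein (chr11:108527130-108528560), had β-catenin at 38.4, 30.4 and 64.6 in WT and 45.3, 17.2 and 61.7 in T/BraKO, with no CdxKO peak. The intronic site of Mitf, the melanocyte and eye pigment factor (chr6:97864274-97865261), had 26.6, 31.3 and 58.5 in WT, 21.1, 13.6 and 29.7 in T/BraKO and none in CdxKO. At both sites the T/BraKO and WT ranges overlapped. An intron of Pde11a, a phosphodiesterase gene (chr2:76080163-76081028), had 43.7, 24.2 and 58.3 in WT, 78.8, 20.2 and 71.6 in T/BraKO and none in CdxKO. Its SOX2 values, 8.72, 13.0 and 28.9 in WT and 25.1, 14.3 and 28.4 in T/BraKO, had no counterpart in CdxKO or without CHIR.

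SOX2 was still listed in all CdxKO libraries at 2 of the 12 sites, Sp4 and Pdcd1lg2. At the intergenic site 263567 bp upstream of Sp4, a zinc finger factor gene (chr12:118564631-118565523), SOX2 was 19.4, 23.4 and 44.0 in WT, 11.3, 6.29 and 10.1 in CdxKO, and 5.02, 11.6 and 23.2 without CHIR. At Pdcd1lg2, the gene of the ligand PD-L2 (chr19:29470367-29471712), SOX2 was 20.6, 7.97 and 16.7 in WT and 20.3, 7.62 and 11.0 in CdxKO, which overlapped. β-catenin at the latter was 35.8, 15.2 and 32.9 in WT and at most 2.404 in CdxKO. The remaining sites of the 12 lay in or near Wdfy4, Tcp11, Hoxa3, Psd3 and Prickle1, a planar cell polarity gene, with β-catenin between 17.7 and 47.8 in WT.

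Hox genes, which give cells their position along the body axis, lay near more of the members than of the other regions. The 4 Hox clusters, each extended by 10000 bp, held 210 of all regions (0.219%), 11 of the members (2.92%) and 4 of the rank-matched kept regions (0.410%). Of the 37 regions in the clusters that all 3 WT lists called, 11 were members and 15 were kept. The Hoxc cluster held 4 members beside 3 kept regions, the Hoxa cluster 3 beside 2, the Hoxb cluster 3 beside 8 and the Hoxd cluster 1 beside 2. The same cluster thus carried sites of both kinds.

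All 11 Hox members were called in at least 2 T/BraKO lists, as were 13.1% of all regions. A CDX word was held by 9 of them, and more than 1 by 6. A single one, near Hoxc11, held a TCF/LEF word. SOX2 was called in at least 2 lists at 5 of the 11 in WT and in T/BraKO, and at 0 in CdxKO and without CHIR. Over all regions these shares were 4.50% in WT, 7.87% in T/BraKO, 8.12% in CdxKO and 8.39% without CHIR. A count of 0 in 11 regions does not stand apart from such backgrounds. LEF1 was called in at least 2 WT lists at 2 of the Hox members and in no such number elsewhere, beside 1.76% of all regions in WT, 2.51% in CdxKO and 1.53% in T/BraKO. The share of Hox sites with SOX2 in WT is a count of 11 regions in 4 loci and no independent sample.

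In the Hoxa cluster the strongest member was the Hoxa3 intron site at chr6:52176777-52177562, with β-catenin at 28.7, 17.7 and 38.3 in WT, 20.9, 11.1 and 21.004 in T/BraKO and 4.98 in CdxKO library 3 alone. The member nearest the Hoxa5 start (chr6:52199360-52200254), shown above under Hoxa3, in whose annotated intron it lies, had 12.6, 11.4 and 28.9 in WT, 16.3, 10.4 and 17.8 in T/BraKO and 5.24 in CdxKO library 1. T/BraKO and WT overlapped at both, and the lone CdxKO values lay below all of them. The third, at chr6:52182570-52183183, had 11.0, 6.42 and 16.2 in WT and was unlisted in CdxKO for all 3 proteins.

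At Hoxb8, the intron site had β-catenin at 16.9, 12.9 and 11.8 in WT, 20.6, 13.6 and 20.2 in T/BraKO and 3.65 in CdxKO library 3. The site 399 bp upstream of Hoxb9 (chr11:96270411-96271404) was the Hox member listed in all 3 complete CdxKO lists, at 3.81, 4.27 and 5.06 against 5.95, 7.20 and 19.8 in WT. Here the margin between the highest CdxKO and the lowest WT value was small. In the Hoxc cluster β-catenin ran from 6.02 to 13.4 in WT over the 4 members, near Hoxc4 (2 sites), Hoxc8 and Hoxc11. The Hoxd member, 741 bp upstream of the start of Hoxd4, had 6.30, 5.50 and 8.32 in WT, 6.89, 5.76 and 6.05 in T/BraKO and none in CdxKO.

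Genes near the members were set against 10 lists of developmental genes by the nearest protein-coding start site within 100000 bp. The list of posterior and CDX-linked genes took 15 members (3.98%), near 12 of its 54 genes, against 0.513% of the rank-matched kept regions and 0.414% of all regions. Besides the Hox and Meis3 sites it included Greb1, the cofactor gene Meis2, and Cdx2. The neural list took 7 members (1.86%, against 0.718% and 0.555%), and the WNT pathway list 4 (1.06%, against 0.821% and 0.561%). Pluripotency genes took 3 (0.796%, against 0.308% and 0.258%), mesoderm and streak genes 2 (0.531%, against 0.718% and 0.447%), and retinoic acid genes 2 (0.531%, against 0.205% and 0.134%). The FGF, endoderm and neural crest lists took 1 member each (0.265%), and the Nodal and BMP list took 0, where 0.205% of the rank-matched kept regions and 0.240% of all regions lay near its genes. Outside the posterior and CDX-linked list the counts were 7 or fewer, too small to set those lists apart from the other regions. No test was made of any list.

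In the WNT pathway list the members lay near Znrf3, an E3 ligase gene that limits WNT receptors, the receptor gene Fzd10, the zinc finger gene Sp8 and Lef1 itself. At Znrf3 β-catenin was 7.38, 7.40 and 9.26 in WT, unlisted, 4.57 and 3.62 in CdxKO, and 11.6, 9.83 and 6.30 in T/BraKO. The Lef1 intron site had 5.16, 5.13 and 8.99 in WT and 5.17 in CdxKO library 2, which overlapped, and was called in no T/BraKO list. SOX2 at the Sp8 exon site was 16.9, 21.8 and 33.3 in WT and 12.9, 13.8 and 20.8 in CdxKO, again with overlap.

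Neural genes near the members included En1, Sox1 and Pax7, all transcription factor genes. At the site nearest En1, a gene of the midbrain and hindbrain border, SOX2 was 19.1, 5.63 and 20.9 in WT and 20.4, 32.9 and 16.8 without CHIR, so these groups overlapped. The 2 Pax7 members lay 13179 bp apart and had β-catenin between 6.09 and 9.58 in WT. None of these 4 neural sites, at En1, Sox1 and Pax7, held a CDX word.

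The members of the other lists varied in strength. A site 93576 bp upstream of Msx1, a neural crest and limb gene, had β-catenin at 16.5, 13.9 and 13.8 in WT, 26.7, 15.8 and 18.2 in T/BraKO and none in CdxKO. The site near Cxcr4, a chemokine receptor gene of the endoderm list, had 9.01, 7.06 and 12.3 in WT and none in CdxKO. At Aldh1a2, the retinoic acid synthesis enzyme, β-catenin was 6.30, 5.61 and 10.7 in WT, whereas SOX2 was 17.99, 7.44 and 13.5 in WT and 15.1, 14.2 and 15.6 in CdxKO. SOX2 thus overlapped between the genotypes there. The remaining members of these lists, near Etv5, Lhx1, Rarg, Sall4 (2 sites) and Otx2, had WT β-catenin values from 4.43 to 11.4.

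One member lay at a deleted gene, 2139 bp upstream of Cdx2 (chr5:147308778-147309809). Its β-catenin fold enrichment was 11.8, 5.75 and 9.24 in WT, 12.1, 18.1 and 17.6 in T/BraKO, and unlisted in CdxKO. A kept region at Cdx2 (chr5:147303643-147305500) was as high in CdxKO, at 68.1, 53.9 and 51.0, as in WT, at 60.6, 53.9 and 52.3. Whether the DNA under the member is intact in the CdxKO line was not tested. A further kept region, nearest the start of Urad beside Cdx2, had 13.0, 20.3 and 22.7 in WT and 16.2, 7.23 and 8.09 in CdxKO, which overlapped. The kept region at the Cdx1 start had 120.8, 143.8 and 162.5 in WT and 62.1, 43.5 and 41.4 in CdxKO, so that it was on the CdxKO lists with every value below those of WT. Both regions called in all 3 WT lists at T were kept, and no region at Cdx4 was called in all 3 WT lists.

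By position, 194 members (51.5%) were intergenic, 159 (42.2%) intronic and 24 (6.37%) exonic. Within 1000 bp of a start site of any annotated gene lay 48 (12.7%, 9.74 to 16.5%), against 12.9% of the rank-matched kept regions and 13.8% of all regions. The median distance to the nearest start site of a protein-coding gene was 40837 bp, against 31617 bp and 29803 bp. Members with a CDX word lay at promoters in 7.34% and those without in 17.5%. Most stood alone: the nearest other member was 1523241 bp away in the median, and 49 (13.0%) had one within 100000 bp. A kept region lay within 10000 bp of 37 members (9.81%).

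Members with no peak in any complete CdxKO list differed from the others in sequence, in promoter position, and in SOX2 in CdxKO and without CHIR. Of these 169, 56.8% held a CDX word, and SOX2 was called at 6.31% in CdxKO and 8.28% without CHIR (means of 3 libraries). Of the 208 with a weak CdxKO peak 38.9% held a CDX word, and SOX2 was called at 24.7% and 26.3%. Over all regions these SOX2 shares were 9.29% and 9.08%, a little above the first class and below the second. Promoters held 6.51% of the first class and 17.8% of the second. In WT with CHIR the SOX2 shares of both classes were close, 28.0% and 28.7%, as were the T/BraKO shares, 39.3% and 42.3%. The class was set by the CdxKO β-catenin lists, and the WT median mean rank was 6377 in the first and 7222 in the second.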

How the data were processed

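ChIP-seq peak lists of 30 libraries in 10 groups of 3 biological replicates were used, and 12 input samples were not analysed here. The authors trimmed single-end reads, aligned them to mm10 with BWA in the nf-core chipseq pipeline and called narrow peaks per library with MACS2 (its version and controls are not given in the sources used here). Deposited columns used were the fold enrichment, a ratio over local background, the −log10 p-value and −log10 q-value, and the summit position. The deposited score was not used. The lists hold no read counts, so the count test of the study was not run and depth is unknown. Lists held 26940 to 1008922 peaks, so strong and weak lists were equalised at 20000 peaks, and fold enrichments depend on each library's background.

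The members and gene lists were chosen with earlier results of these data known. Ranks followed −log10 q, with ties broken by −log10 p and fold enrichment. Sequences and genes came from GRCm38.p6 and GENCODE M21. Named regions were the 12 members of best mean WT rank, all Hox members, members near list genes (all, or the 5 best where a list had more), those nearest the rank limit, and regions at the deleted genes. Motif shares have 95% Wilson intervals, which cover counting error only. SOX2 and LEF1 heights (log2 fold enrichment of the highest peak of the complete list in a region) were compared with limma 3.58.1 in R 4.3.3, two-sided, with all libraries of a factor in one fit, for regions with a peak in at least 2 of 3 libraries of both groups. Libraries were centred on their median over regions listed in all of them. Benjamini-Hochberg adjustment covered all regions tested, with a threshold of 0.05. The fit was also run on simulated data with the same noise level in all libraries of a factor. Its rates of recovery and of false calls are not given here. A missing peak was not imputed, so heights of listed peaks understate losses. Python 3.11.15, pandas 2.3.3 and pysam 0.24.0 were used otherwise. Alternatives changed the number of peaks, the overlap, filter, centring, libraries, replicate block, motif window and promoter distance, and the rank-matched kept set was added after seeing the data.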

Additional observations from a re-analysis of the deposited data

How the results depend on the processing

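Members numbered 264 with the 10000 best peaks, 216 with the 5000 best and 892 with complete lists, and 181, 80 and 167 of the 377 overlapped a region of these sets, fewer than 1 in 2 in each. They numbered 476 to 928 when 1 library was left out, with 643, 928 and 809 without WT β-catenin replicate 1, 2 and 3, and 374 to 377 of the 377 overlapped these sets. Leaving out a list only loosens the rule, so nearly all members stay by construction and this overlap is no measure of stability. With the 10000 best peaks the members called fell to 63.3% for T/BraKO β-catenin, 10.8% for CdxKO SOX2, 11.8% for SOX2 without CHIR, 3.09% for CdxKO LEF1 and 7.60% for T/BraKO LEF1. With complete lists they were 85.7% for T/BraKO β-catenin, 67.6%, 35.6%, 60.0% and 35.6% for SOX2 in WT, CdxKO, T/BraKO and without CHIR, and 48.3%, 37.1% and 51.8% for LEF1 in WT, CdxKO and T/BraKO. Over all regions the complete lists gave, in the same order, 27.4%, then 22.8%, 19.1%, 16.7% and 18.1%, then 17.2%, 21.4% and 20.3%. Shares over all regions were not computed with the 10000 best peaks. Requiring the summit inside the region gave 3.45% for CdxKO LEF1. CDX, TCF/LEF, SOX, MEIS and OCT words were found at 34.5%, 25.5%, 9.02%, 5.84% and 3.98% of members within 50 bp and at 57.6%, 44.8%, 20.2%, 24.9% and 10.1% within 200 bp. In windows moved by 1000 bp CDX, TCF/LEF, SOX and OCT words were at 18.3%, 9.28%, 6.10% and 2.39%. Members at promoters were 27.3% within 5000 bp and 8.49% with protein-coding genes alone.

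SOX2 calls for CdxKO (15 of all regions, 3 of members) fell to 1 and 0 without centring, and members called to 1 where a peak in all libraries was required. Leaving out 1 library gave 1 to 14 regions and 0 to 4 members: 1 and 0 without WT SOX2 replicate 3, 9 regions without WT replicate 2, and 2, 5 and 4 regions with 1, 0 and 1 members without CdxKO replicate 1, 2 and 3. For T/BraKO SOX2 (2) the count was 0 without centring and 0 with both groups alone, and 0 to 4 without a library (0 without T/BraKO replicate 1 or WT replicate 2 or 3, and 4 without WT replicate 1). Without CHIR (690 regions, 15 members) members called were 8 without centring, 3 lower and 5 higher, and leaving out a library gave 345 to 512 regions and 5 to 14 members (444 and 389 regions without WT CHIR replicate 1 and 3, 402 and 345 without replicate 1 and 2 of the group without CHIR, 8 members without WT CHIR replicate 3, and 6, 5 and 9 without replicate 1, 2 and 3 of the group without CHIR). For CdxKO LEF1 (2) the count was 1 with peaks in all libraries, 0 without centring and 0 to 7 without a library (7 without WT replicate 2, 1 without CdxKO replicate 1, 0 without CdxKO replicate 2 or 3 or WT replicate 3). For T/BraKO LEF1 (2) it was 5 with peaks in all libraries, 8 without centring, 0 with both groups alone and 0 to 11 without a library (11 without WT replicate 1, 0 without each of the other 5). The members' median for T/BraKO turned to 0.024 for SOX2 without centring, and for LEF1 it ran from −0.104 to 0.00363 without 1 library (highest without T/BraKO LEF1 replicate 2). The cause of these shifts was not tested. The members' median lay below that of all regions in 11 of 11 settings for CdxKO SOX2, CdxKO LEF1 and SOX2 without CHIR.

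With the replicate number as a block, called members were 5 for CdxKO SOX2, and called regions were 4 for T/BraKO SOX2 and 5 for T/BraKO LEF1. For SOX2 and LEF1, each library's deviations from its group mean were correlated with those of the WT CHIR libraries. Regions listed in all libraries of the factor were used. The 15 same-numbered pairs gave −0.12 to 0.087, and differently numbered pairs gave −0.16 to 0.124. These ranges overlapped, and 8 of 15 libraries correlated best with their own number, so the numbers were not taken to pair the samples. Peak lists show no reads, so a site not listed may be bound below the caller's limit.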
